A study of Mus musculus with 10 samples.

Results

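The insulin-like growth factor (IGF) system was followed across the cell classes of mouse inguinal white adipose tissue (iWAT), through its ligand Igf1, the receptors Igf1r and Igf2r, and the binding proteins Igfbp3, Igfbp4, Igfbp5, Igfbp6 and Igfbp7. The list names 9 genes by family, with no measured value in the rule, and 8 of them were among the 14623 genes of the count table. Igfbp2, the remaining name, was not analysed here. The cells were the stromal vascular fraction (SVF), the mixture of precursor, vascular and immune cells that collagenase digestion frees from fat once the adipocytes float off. They came from 1 Bbs8 KO mouse (Bbs8-/-, lacking a subunit of the BBSome, the complex that moves receptors through the primary cilium) and 1 Bbs8 WT mouse (Bbs8+/+), both 7 weeks old and lean, and the labels count 5 samples per genotype. The loss of Bbs8 is in the germline and so in every cell type, and with 1 mouse each, genotype and animal cannot be told apart.

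IGFs are small secreted growth factors that act through the tyrosine kinase receptor IGF1R, and growth hormone drives the production of Igf1 in liver and in many tissues, fat included. In tissue fluid most IGF is held by binding proteins, which block, store or deliver it, and proteases release it by cutting them. In fat, IGF1 promotes growth and differentiation of adipocyte precursors, and binding proteins made by stromal and vascular cells set how much of it reaches the receptor.

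Bbs8 WT and Bbs8 KO cells were compared with unequal depth. The table held 8985 Bbs8 KO cells with 3144195 unique molecular identifiers (UMIs, each marking a captured mRNA molecule) and 1929 Bbs8 WT cells with 715989 UMIs, at a median of 251 and 278 UMIs per cell. Barcodes fell into 5 sets per genotype, with 1635 to 2005 cells in the Bbs8 KO sets and 196 to 768 in the Bbs8 WT sets. Their codes (KO5 or KO6, WT3 or WT4, each with p1 to p3) are not explained in the sources used here, so arrays and animals cannot be told apart by them. The sets are treated as technical parts of 1 mouse, so no test, SD or p-value is given, and their range is printed as a description. In all, 36 barcodes occurred in more than 1 set. Ttc8, the gene that encodes BBS8, had 0 UMIs in the Bbs8 KO cells and 5 UMIs in the Bbs8 WT cells, all in 1 of 5 sets. The largest Bbs8 WT set, WT4_p2, held 39.8% of the Bbs8 WT cells.

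Levels are given as CPM, the UMIs of a gene scaled to 1000000 UMIs over all cells of a class in a mouse, with an exact Poisson 95% interval that covers counting error only. Levels of different genes are not compared, because transcripts may differ in how well they are captured. Shares of summed UMIs, where given, are not corrected for this either. Cells were clustered without the members, and clusters were named "-like" from marker lists. The stromal cells formed P1-like cells (Dpp4, Pi16 and Sema3c; 453 Bbs8 KO and 176 Bbs8 WT cells), P2-like cells (Col15a1, Fgf10 and Pparg; 609 and 257) and P3-like cells (F3, Gdf10 and Inmt; 205 and 115). Endothelial-like cells numbered 396 and 144, pericyte-like cells 82 and 27, and macrophage-like cells 469 and 121. A vascular cluster led by both kinds of marker (235 and 60 cells) was kept out of both classes, and 3533 and 514 cells lay in clusters with no leading markers. The largest of these clusters (1810 and 306 cells) had a stromal marker list as its best but scored too low on it to be named. Stromal values here thus describe the named subtypes only. Because a class level is a sum over cells, more cells with the transcript and more transcript per cell are not separated by it.

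Binding protein levels differed among the stromal subtypes. Igfbp5 and Igfbp6 were highest in P1-like cells, Igfbp3 in P3-like cells, and Igfbp7 in the vascular classes and P3-like cells, in both mice. Igf1 was highest in P3-like and macrophage-like cells. Among the subtypes, P2-like cells had the highest level of no binding protein. Of the 8 members, 6 had the same leading stromal subtype in both mice, and the exceptions were the receptors Igf1r and Igf2r.

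**Figure D1:**
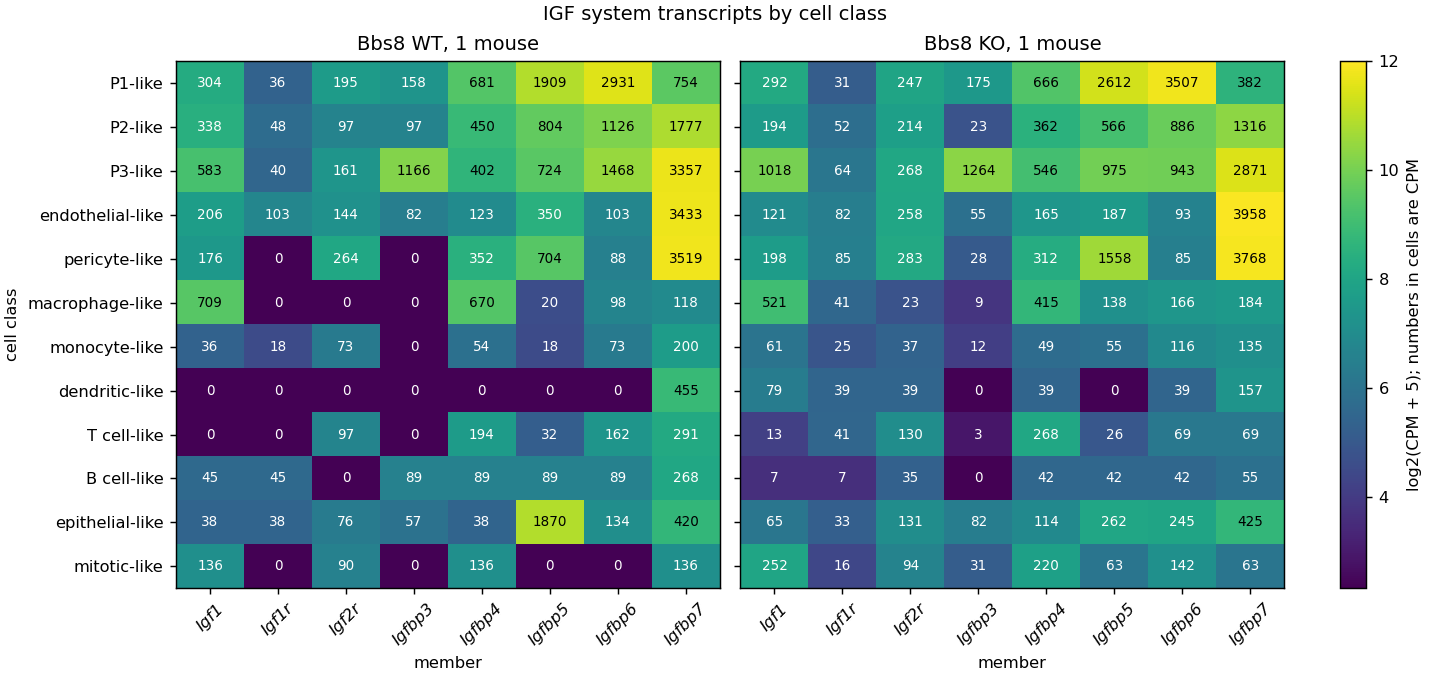
Heat map of the 8 members (columns) in 12 named cell classes (rows) in the Bbs8 WT mouse (left) and the Bbs8 KO mouse (right). Colour is log2(CPM + 5) and the number in each cell is CPM; Igfbp6 reached 2931 and 3507 CPM in P1-like cells and Igfbp7 3433 and 3958 CPM in endothelial-like cells.

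Igf1, the secreted ligand, was highest in P3-like stromal and macrophage-like cells. In P3-like cells its level was 1018 CPM (823 to 1244) in the Bbs8 KO mouse and 583 CPM (390 to 837) in the Bbs8 WT mouse. In macrophage-like cells it was 521 CPM (429 to 626) and 709 CPM (497 to 982). P3-like cells thus led in the Bbs8 KO mouse, apart from the next class by more than counting error, whereas in the Bbs8 WT mouse the macrophage-like and P3-like intervals overlapped. Mitotic-like and pericyte-like cells of the Bbs8 KO mouse, at 252 CPM (144 to 409) and 198 CPM (79.7 to 409), overlapped its P1-like and P2-like cells. Endothelial-like cells of the Bbs8 WT mouse, at 206 CPM (98.6 to 378), overlapped the same subtypes there. T cell-like and B cell-like cells, which are not known for making Igf1, had 12.8 and 7.49 CPM in the Bbs8 KO mouse, and 0 and 1 UMIs in the Bbs8 WT mouse. A UMI of Igf1 was found in 16.4% of Bbs8 KO macrophage-like cells (13.2 to 20.1, exact Clopper-Pearson) and 21.5% of Bbs8 WT ones (14.5 to 29.9). The same share was 0.461% and 0% in T cell-like cells, where 0 of 118 Bbs8 WT cells allows up to 2.54% by a limit of 3 counts. The median depth was 328 and 305 UMIs in macrophage-like cells and 271.5 and 232.5 in T cell-like cells. With each cell thinned to 200 UMIs the macrophage-like shares were 8.29% and 14.4%, which left out 83 and 24 shallower cells, and 0 of 796 and 0 of 85 T cell-like cells had a UMI.

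Within the stroma, Igf1 was highest in P3-like cells of both mice. In the Bbs8 KO mouse P3-like cells had 5.24 times the level of P2-like cells (3.76 to 7.37), with the higher value in 5 of 5 sets. In the Bbs8 WT mouse the ratio was 1.73 (1.04 to 2.84), with P3-like cells higher in 3 of 5 sets, and it was 0.794 when cells were assigned one at a time by their own markers. P2-like cells had 188, 212, 164, 231 and 183 CPM of Igf1 in the sets KO5_p2, KO5_p3, KO6_p1, KO6_p2 and KO6_p3. The same class had 417, 352, 339, 304 and 345 CPM in WT3_p1, WT3_p2, WT3_p3, WT4_p2 and WT4_p3. Every Bbs8 KO set was below every Bbs8 WT set, as it was for 1.77% of the 3795 genes with at least 20 UMIs in P2-like cells, and the ratio over all cells was 0.5745 (0.381 to 0.874). In P3-like cells the order was the opposite, at 1.75 (1.14 to 2.75) with overlapping sets, 536.5 to 1769 CPM against 319 to 1222 CPM. That value depends on single Bbs8 WT sets: on the log2 scale it was 0.80, against 1.304 without WT4_p3 and 0.39 without WT4_p2.

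In macrophage-like cells, Igf1 was 566, 316.5, 615, 542 and 508.5 CPM in the Bbs8 KO sets and 755, 773, 620, 658 and 744 CPM in the Bbs8 WT sets, in the same order of sets. The groups did not overlap, but the lowest Bbs8 WT value rests on 2 UMIs and lay close to the highest Bbs8 KO value, and the ratio of 0.734 had an interval that holds equality (0.501 to 1.10). Of the 2423 genes with at least 20 UMIs in this class, 0.413% had every Bbs8 KO set below every Bbs8 WT set. P1-like cells had 292 and 304 CPM of Igf1 in the Bbs8 KO and Bbs8 WT mouse, a ratio of 0.961 (0.598 to 1.59), so no difference was detectable there at this depth. Over the 12 classes, the genes with the pattern most like that of Igf1 were Pmp22 (Pearson r = 0.92 in Bbs8 KO and 0.90 in Bbs8 WT), C4b (0.88 and 0.93) and Lamp2 (0.82 and 0.84), by the correlation of log2(CPM + 20) among 3652 candidate genes. Correlations here and below run over classes of the same libraries, are a description and carry no p.

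Igf1r, the receptor through which Igf1 signals, was at the edge of detection. All stromal cells together held 29 UMIs in the Bbs8 KO mouse and 11 in the Bbs8 WT mouse, or 46.4 CPM (31.1 to 66.6) and 42.9 CPM (21.4 to 76.8). The ratio was 1.08 with an interval from 0.524 to 2.40. Endothelial-like cells had the highest or near highest value, 82.5 CPM from 15 UMIs and 103 CPM from 5 UMIs, and the intervals of all classes with a UMI overlapped their neighbours in the order. No order of classes can be read for Igf1r at this depth. The highest correlations, with Rhoc (r = 0.76 and 0.86), Clstn1 (0.79 and 0.76) and Parva (0.74 and 0.94), rest on the same few UMIs. They are therefore not read as a shared class pattern.

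Igf2r, the mannose 6-phosphate receptor that clears IGF2 and carries lysosomal enzymes, was spread over stromal, endothelial and pericyte-like cells at similar levels. The Bbs8 KO mouse had 247 CPM in P1-like, 213.5 in P2-like, 268 in P3-like, 258 in endothelial-like and 283 CPM in pericyte-like cells, and all these intervals overlapped. Macrophage-like cells stood below them, with 23.0 CPM from 5 UMIs (7.48 to 53.8) and 0 UMIs in the Bbs8 WT mouse. In that mouse 0 counts allow up to 59.1 CPM by the limit of 3 counts. T cell-like cells had 130.3 CPM in the Bbs8 KO mouse (97.0 to 171) against 34.9 CPM (19.1 to 58.6) in B cell-like cells, and the intervals of these lymphocyte classes did not overlap. The gene lies opposite to Airn, a non-coding transcript on the other strand with 10 UMIs in the table. Fam162a (r = 0.85 and 0.85), Sntb2 (0.82 and 0.82) and Cavin1 (0.85 and 0.81) were most like Igf2r over the classes.

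Between the mice, Igf2r was higher in the named stromal subtypes of the Bbs8 KO mouse and lower in its clusters with no leading markers, given below. Its level was 234 CPM (197 to 275) in the Bbs8 KO and 140.5 CPM (98.4 to 194) in the Bbs8 WT stroma, a ratio of 1.66 (1.15 to 2.47), with sets at 190 to 327 CPM and 100.5 to 254 CPM. The log2 ratio of 0.71 was above 0 under all 25 other settings, down to 0.073 with a naming threshold of 0.5. P2-like cells had 66 UMIs against 12, a ratio of 2.21 (1.19 to 4.50). Their set values were 219, 70.7, 359, 178 and 214 CPM in the Bbs8 KO sets and 119, 58.6, 113, 133 and 34.5 CPM in the Bbs8 WT sets. Of the 5 Bbs8 KO sets, KO5_p3 fell among the Bbs8 WT values. P1-like, P3-like and endothelial-like cells had ratios of 1.27, 1.66 and 1.80, and each of these intervals holds 1. The direction in P1-like cells rests on a single set, since the Igf2r log2 ratio of 0.34 was -0.27 without WT4_p2 and 0.95 without WT4_p3. The P2-like value was not kept when clusters were drawn more coarsely: at resolution 0.4 the log2 ratio was -0.030 instead of 1.11. It was 0.81 without KO6_p1, under 2-fold, and 1.55 without WT4_p2.

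Igfbp6, a binding protein that prefers IGF2 over IGF1, marked P1-like cells in both mice. It reached 3507 CPM (3265 to 3762) in P1-like cells of the Bbs8 KO mouse and 2931 CPM (2572 to 3325) in those of the Bbs8 WT mouse, which was 3.96 times (3.44 to 4.56) and 2.603 times (2.11 to 3.23) the level of P2-like cells, with 5 of 5 sets higher in each mouse. P3-like cells had 943 and 1468 CPM and P2-like cells 886 and 1126 CPM, and the intervals of these subtypes overlapped in both mice. A UMI was present in 64.9% of Bbs8 KO P1-like cells (60.3 to 69.3) and 56.3% of Bbs8 WT ones (48.6 to 63.7). In T cell-like cells the shares were 2.21% and 2.54% and in B cell-like cells 1.54% and 2.56%. After thinning to 200 UMIs, 48.0% and 43.6% of P1-like cells and 1.00% and 3.53% of T cell-like cells had one. The genes most like Igfbp6 over the 12 classes were Clec3b (r = 0.96 in Bbs8 KO and 0.93 in Bbs8 WT), Pcolce2 (0.92 and 0.93) and Fbn1 (0.93 and 0.92), the last on the P1 marker list.

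Igfbp5, which binds extracellular matrix as well as IGFs, was highest in P1-like cells of both mice. The P1-like level was 2612 CPM (2404 to 2834) in the Bbs8 KO mouse and 1909 CPM (1622 to 2232) in the Bbs8 WT mouse. In the Bbs8 KO sets it was 1983, 2274, 2929, 2965 and 2946 CPM, and in the Bbs8 WT sets 1593, 1906, 4157, 2457 and 490 CPM. The Bbs8 WT sets thus lay on both sides of all Bbs8 KO sets. P1-like cells exceeded P2-like cells 4.62 times (3.89 to 5.50) in the Bbs8 KO mouse and 2.37 times (1.84 to 3.08) in the Bbs8 WT mouse, in 5 of 5 and 4 of 5 sets. The next class differed between the mice. In the Bbs8 KO mouse it was pericyte-like cells, at 1558 CPM, whose interval overlapped that of P3-like cells. In the Bbs8 WT mouse it was epithelial-like cells, at 1870 CPM, whose interval overlapped the P1-like one, while pericyte-like cells, at 704 CPM (304 to 1387), overlapped P2-like and P3-like cells at 804 and 724 CPM. Pericyte-like cells had 8.34 times (5.34 to 13.2) the level of endothelial-like cells in the Bbs8 KO mouse, higher in 5 of 5 sets, and 2.01 times (0.752 to 4.92) in the Bbs8 WT mouse. Ltbp1 (r = 0.92 and 0.91), Adamts15 (0.94 and 0.89) and Itih5 (0.88 and 0.91) had the pattern over classes most like that of Igfbp5.

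Igfbp3, the main IGF carrier of serum, was concentrated in P3-like cells within the stroma. P3-like cells had 1264 CPM (1046 to 1514) in the Bbs8 KO mouse and 1166 CPM (885 to 1507) in the Bbs8 WT mouse. This was 55.8 times (26.3 to 142) and 12.1 times (6.42 to 24.7) the level of P2-like cells, and P3-like cells were higher in 5 of 5 sets of each mouse. The size of this ratio rests on 7 Bbs8 KO and 12 Bbs8 WT UMIs of Igfbp3 in P2-like cells. It ran from 11.8, with cells assigned one at a time, to 188, with the members allowed among the clustering genes, in the Bbs8 KO mouse, and from 3.58 to 19.7 under the same settings in the Bbs8 WT mouse. The Bbs8 KO sets had 1869, 685, 2885, 575 and 893 CPM in P3-like cells and the Bbs8 WT sets 898, 681, 2075, 935 and 1504 CPM, so the spread among sets within each mouse was wide and the mice overlapped. In the Bbs8 KO mouse T cell-like cells held 1 UMI and B cell-like cells 0 UMIs of Igfbp3. Fbln1 (r = 0.89 and 0.89), Gdf10 (0.91 and 0.82), itself on the P3 marker list, and Apod (0.86 and 0.82) were most like it. The promoter stretches of these members are shown because members with the same leading subtype can be set side by side: Igfbp5 and Igfbp6 for P1-like cells, Igfbp3 and Igfbp7 for P3-like cells. Each is the 150 bases before the RefSeq start site on GRCm38.p6, 5′ to 3′ along the gene. Capitals mark matches on either strand to any of 5 motifs. Searched were the GC box GGGCGG, the letters TATAAA and the CCAAT box of core promoters. Searched too was the E-box CACGTG, which basic helix-loop-helix factors bind. The AP-1 motif TGACTCA completed the list.
Igfbp5, chr1:72874866-72875015, minus strand: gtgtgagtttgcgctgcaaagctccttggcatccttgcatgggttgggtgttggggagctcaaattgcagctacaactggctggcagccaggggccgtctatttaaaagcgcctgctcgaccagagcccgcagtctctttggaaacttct
Igfbp6, chr15:102144036-102144185, plus strand: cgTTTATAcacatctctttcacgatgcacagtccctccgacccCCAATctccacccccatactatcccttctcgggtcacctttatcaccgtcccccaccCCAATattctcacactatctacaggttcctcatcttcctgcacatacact
Igfbp3, chr11:7213924-7214073, minus strand: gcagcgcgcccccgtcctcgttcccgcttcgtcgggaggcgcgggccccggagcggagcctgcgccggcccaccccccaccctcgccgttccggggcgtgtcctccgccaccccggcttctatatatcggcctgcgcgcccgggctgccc
Igfbp7, chr5:77408046-77408195, minus strand: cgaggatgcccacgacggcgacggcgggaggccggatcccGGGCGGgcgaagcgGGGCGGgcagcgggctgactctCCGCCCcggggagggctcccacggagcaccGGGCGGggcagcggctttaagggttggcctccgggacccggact
The Igfbp3 and Igfbp7 stretches held 78.7% and 78.0% G and C, against 55.3% and 50.7% for Igfbp5 and Igfbp6 and a median of 54.0% over 32851 windows. This does not follow the leading subtype throughout, since Igfbp4, also highest in P1-like cells, had 73.3%. Igfbp7 held 4 GGGCGG matches, and 28.6% of windows of the same length held at least 1. Igfbp6 held 1 TATAAA match and 2 CCAAT matches, letters that occurred at least once in 7.57% and 24.5% of windows. None of the motifs occurred in the Igfbp5 and Igfbp3 stretches, which says nothing of the factors that bind there. The E-box and AP-1 letters stood in 4.3% and 2.84% of windows and in none of the stretches printed. The RefSeq start of Igfbp6 lies 176 bases from the 5′ end of the gene in the GENCODE annotation, and those of Igfbp3, Igfbp5 and Igfbp7 lie 0, 19 and 4 bases from it.

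Igfbp7, a low-affinity IGF binder of vessel walls and basement membranes also called angiomodulin, was the vascular member. Endothelial-like cells had 3958 CPM (3674 to 4258) in the Bbs8 KO mouse and 3433 CPM (2932 to 3996) in the Bbs8 WT mouse. Pericyte-like cells had 3768 and 3519 CPM, and the intervals of these classes overlapped in both mice. In the Bbs8 WT mouse P3-like cells, at 3357 CPM (2867 to 3907), overlapped them too, while in the Bbs8 KO mouse P3-like cells, at 2871 CPM (2537 to 3236), overlapped the pericyte-like but not the endothelial-like interval. P2-like cells followed with 1316 and 1777 CPM and P1-like cells with 382 and 754 CPM. A UMI of Igfbp7 was found in 61.1% and 50.7% of endothelial-like cells, against 2.40% and 5.93% of T cell-like cells, or 45.3% and 42.0% of endothelial-like cells after thinning. Median depths were 343.5 and 276.5 UMIs in endothelial-like cells. T cell-like and B cell-like cells had 69.0 and 54.9 CPM in the Bbs8 KO mouse, and 291 and 268 CPM, from 9 and 6 UMIs, in the Bbs8 WT mouse. Col4a1, a basement membrane collagen on the P2 marker list, had the class pattern most like it (r = 0.93 and 0.94), followed by Adamts1 (0.88 and 0.88) and Cdc42bpa (0.91 and 0.88). Polr2b lies across Igfbp7 on the other strand, with 303 UMIs in the table.

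Igfbp4, an inhibitory binding protein that the protease PAPP-A cuts, was spread over stromal, macrophage-like, pericyte-like and T cell-like cells. Its stromal levels ranged from 362 to 666 CPM in the Bbs8 KO mouse and from 402 to 681 CPM in the Bbs8 WT mouse, highest in P1-like cells in both. Macrophage-like cells had 415 CPM (334 to 510) and 670 CPM (464 to 936), and pericyte-like cells 312 CPM (156 to 558) and 352 CPM (95.9 to 901). T cell-like cells had 268 CPM (219 to 325) in the Bbs8 KO mouse, above the 42.4 CPM (24.7 to 67.9) of B cell-like cells in the same libraries, at a median depth of 271.5 and 279 UMIs. A UMI was found in 7.57% (6.06 to 9.30) and 1.36% (0.765 to 2.24) of these cells, or 3.77% and 0.821% after thinning. In the Bbs8 WT mouse T cell-like cells had 194 CPM (71.2 to 422.5) from 6 UMIs, with a thinned share of 3.53%, and B cell-like cells 2 UMIs, too few to compare. Lgals3bp (r = 0.87 and 0.85), Timp2 (0.82 and 0.83) and Lgals1 (0.77 and 0.84) were most like Igfbp4 over the classes.

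The makeup of the binding protein transcripts summed over Igfbp3 to Igfbp7 differed by class. In P1-like cells Igfbp6 took 47.8% of these UMIs in the Bbs8 KO and 45.6% in the Bbs8 WT mouse, and Igfbp5 35.6% and 29.7%. In P2-like cells Igfbp7 took 41.7% and 41.8%. P3-like cells added Igfbp3, at 19.2% (16.1 to 22.5) and 16.4% (12.7 to 20.7), to an Igfbp7 share of 43.5% and 47.2%. In endothelial-like cells Igfbp7 made up 88.8% (86.4 to 90.9) and 83.9% (78.1 to 88.7). Pericyte-like cells had 65.5% and 75.5% Igfbp7 with 27.1% (21.1 to 33.8) and 15.1% (6.75 to 27.6) Igfbp5. The Igfbp4 share in macrophage-like cells was 45.5% (38.4 to 52.7) of 198 UMIs and 73.9% (58.9 to 85.7) of 46 UMIs. Shares of UMIs are not shares of protein, and better captured transcripts count for more.

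**Figure D2:**
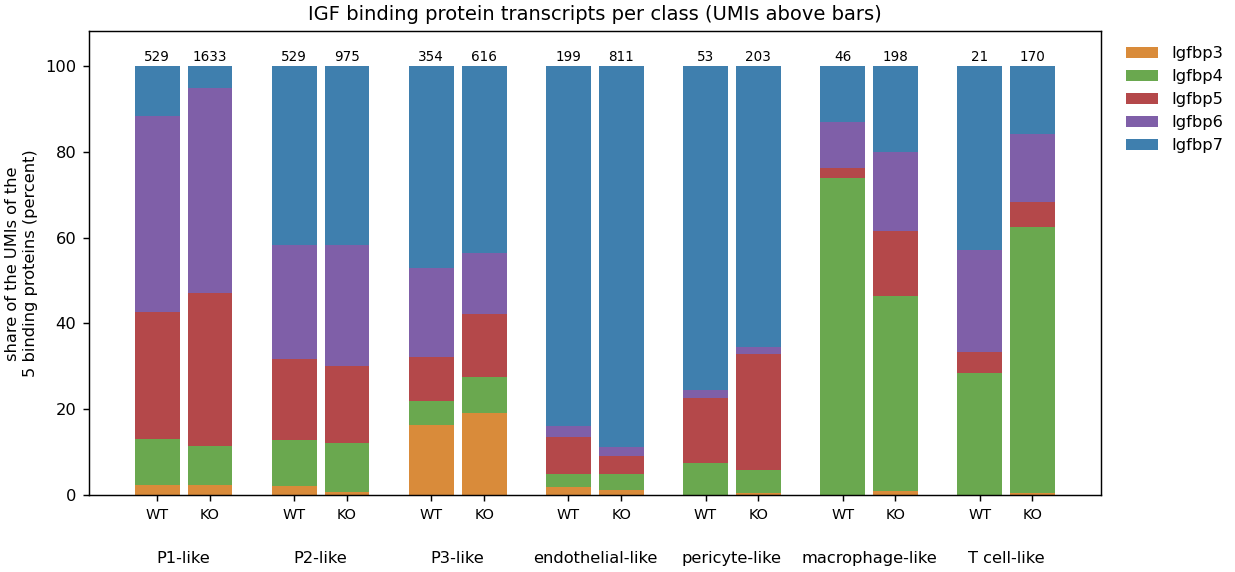
Share of the summed Igfbp3 to Igfbp7 UMIs (percent, y axis) taken by each gene in 7 cell classes, with the Bbs8 WT mouse on the left and the Bbs8 KO mouse on the right of each pair and the number of UMIs above the bar. Igfbp6 took 45.6% and 47.8% in P1-like cells and Igfbp7 83.9% and 88.8% in endothelial-like cells; bars on few UMIs, such as the 21 of Bbs8 WT T cell-like cells, are imprecise.

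Between the mice, no member was past 2-fold over all cells of the named stromal subtypes. A member was counted as past 2-fold when the log2 ratio of CPM + 5, Bbs8 KO over Bbs8 WT, was at least 1 in size and the gene had at least 20 UMIs in the class. In all stromal cells together 0 of 8 members met this, against 14.5% of the 6249 genes with that many UMIs (11.4% higher and 3.09% lower in Bbs8 KO). The median log2 ratio was -0.002 over the members and 0.11 over all these genes, but -0.056 over the 491 genes with at least 200 UMIs, so the members lay below or above the other genes depending on that minimum. Igfbp7 was below equality under all 25 other settings (-0.70 to -0.37 on the log2 scale). Equality lay outside the counting interval for Igf2r (1.66, above), for Igfbp5 at 1.19 (1.04 to 1.36) and for Igfbp7 at 0.693 (0.616 to 0.780), and the sets overlapped for all 3. The Igfbp5 value kept its sign under 22 of 25 other settings, and on the log2 scale it was -0.14 with cells assigned one at a time, in place of 0.24. The sets of 0 of 8 members were apart, against 3.38% of genes with the Bbs8 KO sets above and 1.47% with them below. The stroma of the mice also differed in its makeup, with 35.8% and 32.1% P1-like and 16.2% and 21.0% P3-like cells in Bbs8 KO and Bbs8 WT, so the subtypes were compared one at a time.

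**Figure D3:**
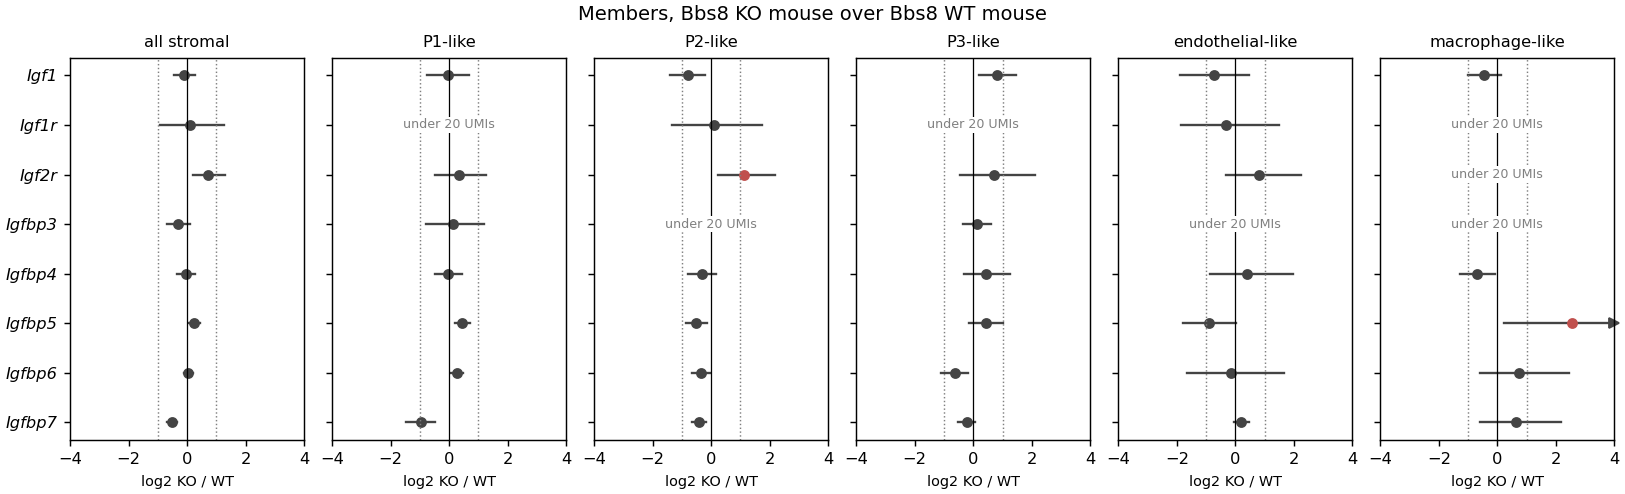
Log2 ratio of each member, Bbs8 KO mouse over Bbs8 WT mouse, in 6 groups of cells. Points are ratios of CPM + 5 (red where past 2-fold, marked by dotted lines), bars are exact 95% intervals of the plain ratio for counting error, and the arrow marks a bar that runs past the axis; most points lie between the dotted lines, and Igf2r in P2-like and Igfbp5 in macrophage-like cells lie outside. Members with under 20 UMIs in a group of cells have no point and are marked as such, and pericyte-like and monocyte-like cells are not plotted.

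Over the 7 separate classes chosen for this comparison (P1-, P2- and P3-like, endothelial-, pericyte-, macrophage- and monocyte-like), 37 combinations of member and class had at least 20 UMIs. Of these, 20 were above and 17 below equality, and 3 were past 2-fold, all higher in Bbs8 KO: Igf2r in P2-like cells, Igfbp5 in pericyte-like cells and Igfbp5 in macrophage-like cells. Of the genes with at least 20 UMIs in those classes, 11.6%, 16.1% and 15.2% were as much higher, and in P1-like, P3-like, endothelial-like and monocyte-like cells, which had no such member, 10.3%, 11.8%, 16.2% and 14.0% were. In the order P1-, P2-, P3-, endothelial-, pericyte-, macrophage- and monocyte-like, 6.85%, 5.35%, 6.79%, 6.79%, 7.23%, 5.98% and 7.48% of genes were at least 2-fold lower, against 0 combinations of the members in these 7 classes. Barcode sets of the mice did not overlap in 4, with every Bbs8 KO set above for Igfbp5 in pericyte-like cells and below for Igfbp7 in P1-like, Igf1 in P2-like and Igf1 in macrophage-like cells. In the same order of classes, all Bbs8 KO sets were above for 2.14%, 2.74%, 1.1%, 3.78%, 4.82%, 2.72% and 2.39% of genes and below for 0.966%, 1.77%, 0.998%, 1.14%, 0.402%, 0.413% and 0.712%. These are members of the same cells and libraries and are not independent of each other.

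Outside those classes the members past 2-fold were lower in the Bbs8 KO mouse. In T cell-like, B cell-like and epithelial-like cells and in the clusters with no leading markers, a comparison added after the data were seen, 16 combinations had at least 20 UMIs and 5 were past 2-fold, each lower in Bbs8 KO. In T cell-like cells these were Igfbp6, with 27 UMIs against 5 and a ratio of 0.426 (0.162 to 1.42), and Igfbp7, with 27 against 9 and a ratio of 0.237 (0.108 to 0.572). In B cell-like cells Igfbp7 had 22 UMIs against 6, a ratio of 0.205 (0.0805 to 0.617). Of all genes with at least 20 UMIs, 9.35% in T cell-like and 10.9% in B cell-like cells were at least 2-fold lower. The pan-stromal list stood at 1464 against 2427 CPM in T cell-like and 1582 against 3309 CPM in B cell-like cells, and its part was not tested. The others were Igfbp5 in epithelial-like cells, described below with the markers of that class, and Igf1 in the clusters with no leading markers.

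In the clusters with no leading markers, Igf1 had 136 CPM against 285 CPM, a ratio of 0.476 (0.332 to 0.693) with overlapping sets, and 6.15% of the 7263 genes compared were at least 2-fold lower. Igfbp5, Igfbp6 and Igfbp7 had ratios of 0.578 (0.466 to 0.723), 0.562 (0.467 to 0.679) and 0.726 (0.617 to 0.858). For these 3 members every Bbs8 KO set was below every Bbs8 WT set, as for 2.27% of genes. Igf2r, higher in the named stromal subtypes of Bbs8 KO, was lower here, with 107.5 CPM against 177 CPM. Its ratio was 0.609 (0.391 to 0.979), with overlapping sets. The mice filled these clusters differently: the cluster whose best list was the T cell one held 930 of the 3533 Bbs8 KO cells and 14 of the 514 Bbs8 WT cells. The largest cluster, with 1810 Bbs8 KO and 306 Bbs8 WT cells, had the pan-stromal list as its best. The stromal levels and ratios therefore leave out cells with stromal markers. The pan-stromal list summed to 25630 CPM in the Bbs8 KO against 55050 CPM in the Bbs8 WT cells of these clusters and the T cell list to 1949 against 374 CPM, with 8 of 8 markers of each in both mice, and their part in the lower values was not tested.

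In P1-like cells the mice differed in opposite directions for the P1-like binding proteins and for Igfbp7. Igfbp5 and Igfbp6 had ratios of 1.37 (1.15 to 1.64) and 1.197 (1.03 to 1.39), with overlapping sets. On the log2 scale the Igfbp5 value of 0.45 was 0.80 without WT4_p2 and 0.17 without WT4_p3. Igfbp7 had a ratio of 0.507 (0.361 to 0.715). Its sets were 537, 339, 347.5, 386 and 278 CPM in Bbs8 KO against 885, 715, 1313, 565 and 925 CPM in Bbs8 WT. Every Bbs8 KO set was below every Bbs8 WT set, as for 0.966% of the 2381 genes compared in P1-like cells. These 3 directions rest on the clusters. When cells were assigned one at a time by their own markers, with no clusters, the log2 ratios were -0.026 for Igfbp5, -0.21 for Igfbp6 and 0.32 for Igfbp7, in place of 0.45, 0.26 and -0.97. Without WT4_p2 the Igfbp7 value was -1.22, past 2-fold. The P3 marker list, whose cells are rich in Igfbp7, summed to 459 CPM in Bbs8 KO against 1046 CPM in Bbs8 WT P1-like cells, and the endothelial list to 148 and 48.6 CPM. The pericyte list, whose cells are also rich in Igfbp7, summed to 49.5 against 134 CPM and the P2 list to 1825 against 2772 CPM. The T cell list stood at 481 against 146 CPM, the B cell list at 638.5 against 219 CPM and the mitotic list at 238 against 36.5 CPM. Their part in the result was not tested.

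In P2-like cells 5 of the 7 members with at least 20 UMIs were lower in the Bbs8 KO mouse. Igfbp5 had a ratio of 0.704 (0.547 to 0.909), Igfbp6 of 0.787 (0.640 to 0.972) and Igfbp7 of 0.741 (0.627 to 0.876), and Igf1 was described with the ligand. Igfbp4 had 0.804 (0.579 to 1.13), an interval that holds 1. The median over the 7 members was -0.34 on the log2 scale, against 0.06 over all 3795 genes compared, and -0.09 over the 200 genes with at least 200 UMIs. Igfbp3 had 7 UMIs against 12, under the minimum and so not counted as past 2-fold. Its ratio was 0.235 (0.0783 to 0.646) with overlapping sets, and it was at least 2-fold lower under 22 of 23 other settings. The direction of Igfbp4, Igfbp5, Igfbp6 and Igfbp7 was the same under all 23 other settings tried. P2 markers themselves summed to 9616 CPM in Bbs8 KO against 13450 CPM in Bbs8 WT P2-like cells. The P3 list, whose cells are rich in Igfbp7 and Igf1, was lower too, at 941 against 1641 CPM, as were the macrophage list at 1087 against 1247 CPM and the pan-stromal list at 77230 against 89400 CPM. Other lists stood higher in the Bbs8 KO class, with the endothelial list at 181 against 24.1 CPM, the pericyte list at 178 against 32.2 CPM, the T cell list at 420.5 against 137 CPM, the B cell list at 527 against 137 CPM and the adipocyte list at 437 against 145 CPM. The part of these lists in the lower values was not tested.

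In P3-like cells Igfbp6 was lower in the Bbs8 KO mouse, at 0.642 (0.466 to 0.888), and Igfbp3, Igfbp4, Igfbp5 and Igfbp7 had intervals that hold 1. The Igfbp6 sets ran from 651 to 1387 CPM in Bbs8 KO cells, overlapping the 798 to 1976 CPM of Bbs8 WT cells. In this class the P3 list summed to 5538 against 6513 CPM, the P2 list to 4531 against 6614 CPM, the T cell list to 621 against 201 CPM, the B cell list to 707 against 221 CPM and the pericyte list to 353.5 against 121 CPM, and their part was not tested. Igfbp6 thus had a ratio above 1 in P1-like cells and below 1 in P2-like and P3-like cells, and with 1 mouse per genotype the difference between these ratios was not tested. Igfbp7 had 0.855 (0.702 to 1.04) in P3-like cells, below 1 as in the other stromal subtypes, and stood at 1.15 (0.973 to 1.37) in endothelial-like cells.

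**Figure D4:**
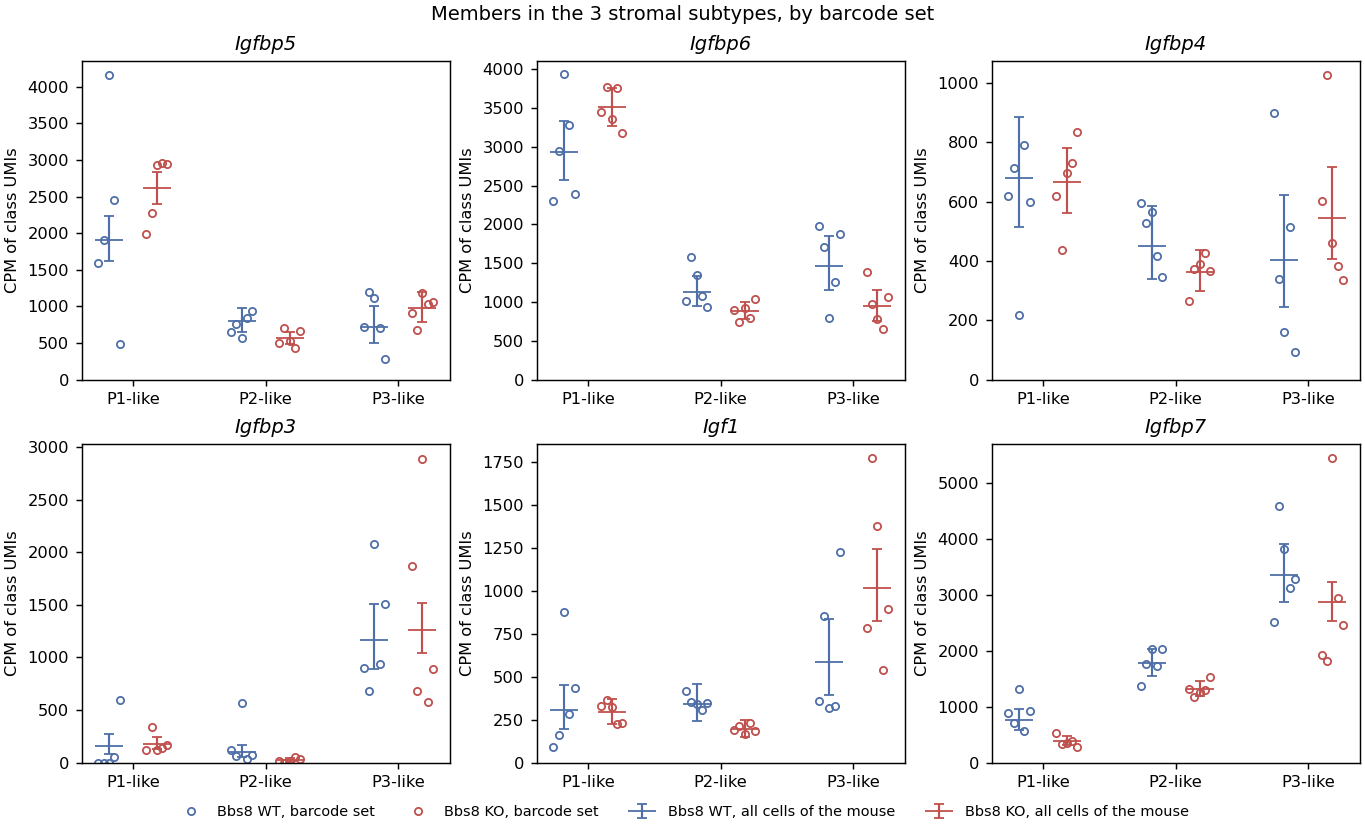
Levels of 6 members (CPM, y axes from 0) in P1-, P2- and P3-like stromal cells. Circles are the 5 barcode sets of each mouse, horizontal marks the level over all cells of the mouse, and bars its exact Poisson 95% interval; Igfbp3 and Igf1 peak in P3-like cells, and the Igf1 sets of the mice are apart in P2-like cells.

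In pericyte-like cells Igfbp5 had 55 UMIs against 8, or 1558 CPM (1174 to 2028) and 704 CPM (304 to 1387). The Bbs8 KO sets had 2744, 1196, 1397, 1416 and 1315 CPM and the Bbs8 WT sets 411, 0, 0, 830 and 1095 CPM. Every Bbs8 KO set was above every Bbs8 WT set, as for 4.82% of the 249 genes compared, but the Bbs8 WT class held 27 cells and its sets 0 to few UMIs. Notch3, a pericyte marker, was at 0 in the Bbs8 WT class. The pericyte list itself summed to 14870 CPM in Bbs8 KO against 8182 CPM in Bbs8 WT pericyte-like cells and the pan-stromal list to 7054 and 10470 CPM, and their part was not tested. With cells assigned one at a time the log2 ratio was -0.37 instead of 1.14, and without KO5_p2 or WT3_p1 it was 0.93 or 0.99, under 2-fold. It was 0.27 with the members allowed among the clustering genes, 1.68 without WT4_p2, and 1.78 with TMM and 1.77 with DESeq2 scaling. In endothelial-like cells all 7 members with at least 20 UMIs had intervals that hold 1, from 0.535 (0.291 to 1.02) for Igfbp5 to 1.80 (0.806 to 4.71) for Igf2r.

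In macrophage-like cells the binding proteins differed in makeup. Igfbp4 was lower in the Bbs8 KO mouse, at 0.619 (0.413 to 0.948), with sets of 254 to 522 CPM against 310 to 1056 CPM. The macrophage list was lower as well, at 28330 against 34730 CPM, and the T cell and B cell lists were higher, at 807 against 158 CPM and 1493 against 788 CPM, and their part in the Igfbp4 and Igf1 values was not tested. Igfbp5 had 30 UMIs in Bbs8 KO and 1 UMI in Bbs8 WT cells, a ratio of 7.02 with a counting interval from 1.17 to 286. Bbs8 KO sets ranged from 28.8 to 270 CPM, and the 1 Bbs8 WT UMI lay in WT4_p3. With finer clusters (resolution 1.2) the log2 ratio was 0.79 in place of 2.54. Igfbp5 in T cell-like and B cell-like cells of the Bbs8 KO mouse was 25.5 and 42.4 CPM. The pan-stromal list, 8 of 8 markers with UMIs in both mice, summed to 4374 CPM (3874 to 5526 over sets) in macrophage-like cells of the Bbs8 KO mouse and 3546 CPM (310 to 11470) in those of the Bbs8 WT mouse, and to 1464 and 1582 CPM in Bbs8 KO T cell-like and B cell-like cells. Its part in the Igfbp5 value was not tested.

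Epithelial-like cells had Igfbp5 at 261.5 CPM (149.5 to 425) in the Bbs8 KO and 1870 CPM (1518 to 2279) in the Bbs8 WT mouse, from 16 and 98 UMIs. Every Bbs8 KO set was below every Bbs8 WT set, as for 4.25% of the 800 genes compared, and 15.6% of them were at least 2-fold lower. The class differed in its markers between the mice. The epithelial list had UMIs for 3 of 7 markers in Bbs8 KO cells, with Krt14, Krt5, Krt17 and Csn3 at 0, and for 7 of 7 in Bbs8 WT cells. Its sum was 2730 and 5057 CPM. The pericyte list summed to 392 and 2137 CPM there, the T cell list to 1553 and 248 CPM, and the B cell list to 2109 and 248 CPM. The part of these differences in the Igfbp5 levels was not tested.

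Of 28 other IGF pathway genes listed, 23 were in the table, and 17 had at least 20 UMIs in the stromal cells of both mice together. Igf2, Igfals, Igfbp1, Igfbpl1 and Insrr were not analysed here. Past 2-fold were 2 genes, both higher in Bbs8 KO, and 0 were lower, against the 11.4% and 3.09% above. They were Irs1, the insulin and IGF1 receptor substrate, with 31 UMIs against 1, and Stat5b, a transcription factor downstream of growth hormone, with 39 against 6, both with every Bbs8 KO set above every Bbs8 WT set, as for 3.38% of the genes compared. The Irs1 ratio over 1 UMI has a lower counting bound of 1.08 on the log2 scale, and that of Stat5b is 0.16. Stat5b was also past 2-fold in endothelial-like cells (20 UMIs against 1, with a counting interval of the ratio that holds equality) but not in macrophage-like cells (17 against 5, 78.4 and 98.5 CPM). Of the 6 listed genes with at least 20 UMIs in endothelial-like cells, Htra1 was past 2-fold lower (15 UMIs against 9), and of 5 in macrophage-like cells Foxo1 was past 2-fold higher (22 against 1), both with counting intervals that hold equality. Over all genes compared, 16.2% were as much higher and 6.79% as much lower in endothelial-like cells, and 15.2% as much higher in macrophage-like cells. Of 8 listed genes in P1-like cells 0 were past 2-fold, against 10.3% higher and 6.85% lower. Of 12 in P2-like cells Irs1 was, with 20 UMIs against 1 and every Bbs8 KO set above, as for 2.74% of genes, and of 4 in P3-like cells Grb10 was, lower at 11 against 12 UMIs with an interval that holds equality, against 2-fold shares of 11.6% higher in P2-like and 6.79% lower in P3-like cells. Lists of other cells also stood higher in Bbs8 KO stroma. The T cell list had 472 against 152 CPM, the B cell list 594 against 180 CPM, the endothelial list 197 against 66.3 CPM, the pericyte list 158 against 81.9 CPM, the adipocyte list 235 against 78.0 CPM and the mitotic list 184 against 27.3 CPM, and their part was not tested.

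Among receptors that bind insulin or IGF complexes, Insr had 24.0 and 23.4 CPM in the stroma of the Bbs8 KO and Bbs8 WT mouse, and Lrp1, an endocytic receptor for Igfbp3, had 677 CPM (614 to 745) and 847 CPM (738 to 967), a log2 ratio of -0.32 (-0.56 to -0.08) with overlapping sets. Among the proteases, Htra1, which cuts Igfbp5, had 691 CPM (628 to 759.6) and 964 CPM (847 to 1092). The Htra1 log2 ratio was -0.48 (-0.71 to -0.25), with every Bbs8 KO set below every Bbs8 WT set, as for 1.47% of the genes compared. Pappa, whose protein PAPP-A cuts Igfbp4, and Pappa2 had 2 UMIs each, and the inhibitors Stc1 and Stc2 had 14 and 11, all under the minimum. Grb14, with 0 UMIs, and Stat5a, with 9, were also under it.

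Below the receptor, Pik3r1, the regulatory subunit of PI3 kinase, was the other gene with all Bbs8 KO sets below, at 205 and 324 CPM and a log2 ratio of -0.65 (-1.07 to -0.24). Akt1 had 86.4 and 109 CPM, Akt2 65.6 and 46.8, Pik3ca 56.0 and 70.2, Foxo1 67.2 and 97.5, and Foxo3 28.8 and 35.1 CPM, each with an interval of the ratio that holds 1. The same held for the adaptors Irs2 (30.4 and 27.3 CPM), Grb10 (176 and 156 CPM) and Shc1 (27.2 and 35.1 CPM). In the growth hormone axis, the receptor Ghr had 68.8 and 54.6 CPM, its kinase Jak2 59.2 and 78.0 CPM, and the feedback inhibitor Socs2 38.4 and 35.1 CPM, likewise with intervals that hold 1.

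The levels rest on genes at these positions in mouse GENCODE on GRCm38: Igf1 at chr10:87858265-87937042, Igf1r at chr7:67952827-68233668, Igf2r at chr17:12682406-12769664, Igfbp3 at chr11:7206086-7213923, Igfbp4 at chr11:99041244-99054392, Igfbp5 at chr1:72857932-72874884, Igfbp6 at chr15:102144362-102149511 and Igfbp7 at chr5:77349240-77408041. Igfbp3, Igfbp5, Igfbp7 and Igf2r are on the minus strand and the others on the plus strand, and all 8 are protein-coding. A UMI was counted for the whole gene, so promoter use or transcript forms could not be read from the table.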

How the data were processed

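The iWAT SVF of 1 mouse per genotype was run on Seq-Well S3 arrays. The authors deposited raw UMI counts without normalization for 14623 genes and 10914 cells. By the study's methods they were made with bcl2fastq 2.20, dropSeqPipe and STAR on mm10 with GENCODE, and cells were filtered by genes and mitochondrial share. Whether the counts precede the depth-equalising step is not given in the sources used here. Set codes gave each cell its genotype, and 0 columns were unused.

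The 10 sets were integrated in Seurat 5.3.0 (R 4.3.3; 2000 variable features without the members, 30 dimensions, resolution 0.8, vascular sub-clusters at 0.3). A cluster took the name of the marker list with the highest mean log2 fold (at least 1, subtypes 0.5, 3 markers), thresholds set after the clusters were seen. Scrublet called 25 cells (0.229%), too few to rely on, so its calls were not used and doublets stayed in. Counts were summed per mouse and class, with a pseudocount of 5 CPM in log2 ratios. Intervals are exact, limits for 0 counts are those of 3 counts, and both cover counting error only. The rule for named genes takes every member, the listed pathway genes with 20 UMIs, and the 3 genes most like each member. The members and lists were chosen with earlier results of these data known. edgeR 4.0.16 (TMM) and DESeq2 1.42.0 gave alternative scalings only. Promoter sequences are from RefSeq (GRCm38.p6), and all 8 members had one.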

Additional observations from a re-analysis of the deposited data

Results flagged for a closer look

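A barcode set stood far from the other 4 of its mouse in 6 of 93 groups of 5 sets searched, where chance alone gives about 1 in 20 groups, or 4.65. That rate is for values that vary freely and does not apply to the groups resting on few UMIs, since a single UMI must set its set apart. Of these, 4 concern Igfbp3. In P1-like cells Igfbp3 was 339 CPM in KO5_p3, from 14 UMIs, against 124 to 162 CPM in the other Bbs8 KO sets. It was 599 CPM in WT4_p3, from 11 of the 13 Bbs8 WT UMIs, against 0 to 56.5 CPM, and without that set the log2 ratio of Igfbp3 in P1-like cells went from 0.15 to 2.31. In P2-like cells Igfbp3 was 564 CPM in WT3_p3, from 5 UMIs, against 38.0 to 119 CPM. In endothelial-like cells it was 453 CPM in the same set, from 3 UMIs, against 0 to 55.4 CPM. In Bbs8 WT macrophage-like cells the single Igfbp5 UMI lay in WT4_p3 (82.7 CPM) and the 5 Igfbp6 UMIs in WT4_p2 (253 CPM), with 0 in the other sets. Without WT4_p3 the log2 ratio of Igfbp5 there went from 2.54 to 4.84, and without WT4_p2 that of Igfbp6 went from 0.72 to 5.10, both against a Bbs8 WT group then at 0 and so no measure of a fold. What set these sets apart was not tested. Igfbp5 in Bbs8 KO pericyte-like cells, where KO5_p2 stood well above the other sets, is not among the flagged groups. The list is therefore not complete.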

How the results depend on the processing

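No paired analysis was possible because the results come from no test, with 1 mouse per genotype. Among the called log2 ratios of members in the 7 classes compared, Igf2r in P2-like cells and Igfbp5 in pericyte-like cells changed sign. Igf2r was -0.030 at resolution 0.4, in place of 1.11. Igfbp5 was -0.37 with cells assigned one at a time, in place of 1.14. The cause was not tested. Ratios in the classes added later, and those of the pathway genes, were not recomputed under other settings. The median log2 ratio of the members in all stromal cells, -0.002, was -0.24 at resolution 0.4, -0.24 with cells assigned one at a time, -0.15 with TMM scaling, -0.17 with DESeq2 scaling, -0.26 with a naming threshold of 0.5 and 0.13 with equal weights of the 3 subtypes, the last 2 chosen after seeing the data. Leaving out each barcode set in turn gave medians from -0.08 to 0.06, and 6 to 7 members with the same leading stromal subtype. Members past 2-fold in all stromal cells stayed at 0 under every setting. TMM and DESeq2 scaling shifted every log2 ratio by -0.15 and -0.17 in all stromal cells and by 0.64 and 0.63 in pericyte-like cells. Of 3472 recomputed levels, 3135 stayed within the counting interval, as did 1502 of 1536 log2 ratios. Without integration no P2-like or P3-like class was found. Depth limits Igf1r in all classes, and all members in Bbs8 WT pericyte-like, T cell-like and B cell-like cells.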
